A study of Homo sapiens with 55 samples.

Results

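The transcripts of 6 genes of the ETS family of transcription factors were followed: ETV1, ETV4 and ETV5 of the PEA3 subfamily, ETS1 and ETS2 of the ETS subfamily, and ELK1 of the ternary complex factor (TCF) subfamily. All probes were taken whose symbol in the platform annotation was one of these 6, which gave 6 of 18852 named genes and 9 of the 48803 probes on the array. Of these, 5 probes belonged to the PEA3 genes and 4 to the other 3 genes. The genes were chosen by their differences between triptorelin and vehicle in the receptor-bearing SCL60 cells, above all the high signals of ETV4 and ETV5 after long treatment. Their values in those comparisons are therefore a description, with no test.

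ETS factors share a DNA-binding domain that reads a GGAA core. The PEA3 factors lie downstream of receptor tyrosine kinase and Ras-ERK signalling, which raises their transcription and phosphorylates the proteins. The repressor CIC keeps PEA3 genes silent until ERK signalling relieves it, and the COP1-DET1 ubiquitin ligase marks the PEA3 proteins for breakdown. ELK1 instead is present beforehand and is switched on by ERK phosphorylation at serum response elements, and ETS1 and ETS2 are activated by ERK phosphorylation as well.

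The 55 Illumina HumanHT-12 arrays measured total RNA of HEK293, a human embryonic kidney line labelled as having undetectable gonadotropin-releasing hormone receptor (GnRHR), and of SCL60, a line made from HEK293 by stable transfection with a high level of the rat receptor. Both lines grew on Matrigel-coated plates in serum-containing medium, and only SCL60 received the selection drug G418. Cells were given 100 nM triptorelin, a GnRH agonist peptide, or vehicle, a propylene glycol solution. SCL60 had vehicle groups at 0, 1, 8 and 24 h and triptorelin groups at 0.5, 1, 2, 8 and 24 h, and HEK293 had vehicle groups at 0, 1 and 24 h and triptorelin groups at 1 and 24 h. Each of the 14 groups had 4 arrays except the SCL60 vehicle group at 1 h, which had 3. The labels do not say whether replicates were separate cultures or whether SCL60 is 1 clone, so p-values measure the spread between these arrays, which may be technical.

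Array medians ran from 44 to 75 signal units and 11766 to 14763 probes per array were detected, that is, had a detection p-value under 0.01. Values below are log2 signals after background correction and quantile normalization; the lowest level that counted as detected lay between 5.33 and 6.20 on the different arrays. Of 7 HEK293 markers, 6 were detected on all 55 arrays and PAX2 on none. Of the 4 blood markers with a probe, PTPRC, CD3E and HBB were detected on no array, while CD68 was detected on all 55 and was higher with triptorelin in SCL60, by 0.68 at 8 h (adjusted p = 0.00161) and by 1.25 at 24 h (adjusted p = 9.7e-08). The endothelial markers CDH5 and VWF and both liver markers were detected on no array, and PECAM1 was detected on 4. Among the HEK293 markers NEFM, a neurofilament, was higher with triptorelin at 8 h by 1.75 (adjusted p = 7.73e-08), and in untreated cells at 0 h NEFM and NEFL were lower in SCL60 than in HEK293 by -2.90 and -3.12 and EPCAM was higher by 2.00 (largest adjusted p = 1.62e-14). The part of these marker differences in the results below was not tested.

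Of the 6 genes, ETS2, ELK1 and ETV1 had entries in the RefSeq promoter table (GRCh38.p14). ETS2 and ELK1, the measured genes among these, are shown because both stood higher at 8 h of triptorelin and not at 24 h. Each window is the 250 bases before the gene's start, 5′ to 3′ on the gene's strand, with every GGAA core on either strand in capitals.
ETS2, chr21:38804933-38805182, plus strand: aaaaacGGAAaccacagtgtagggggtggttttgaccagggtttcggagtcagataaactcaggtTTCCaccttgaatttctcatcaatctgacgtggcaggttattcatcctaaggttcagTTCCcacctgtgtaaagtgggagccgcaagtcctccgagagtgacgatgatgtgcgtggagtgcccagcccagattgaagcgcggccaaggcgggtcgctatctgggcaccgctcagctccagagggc
ELK1, chrX:47650605-47650854, minus strand: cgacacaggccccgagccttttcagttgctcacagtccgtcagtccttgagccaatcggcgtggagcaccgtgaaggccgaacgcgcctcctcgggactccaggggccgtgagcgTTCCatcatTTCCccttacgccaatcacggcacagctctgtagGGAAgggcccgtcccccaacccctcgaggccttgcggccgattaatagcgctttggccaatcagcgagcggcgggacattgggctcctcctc
Each window held 3 cores, at 244, 185 and 128 bases before the start of ETS2 and at 135, 126 and 92 bases before that of ELK1. Such a core is common, since 92.7% of the 35116 windows in the table held at least 1. Neither window held TNAATGNA, a pattern that covers the octamers read by CIC (both strands, found in 9.77% of windows), or the AP-1 pattern TGANTCA (both strands, in 6.57%). For ETV1, whose probe was undetected, the window before the gene's start held 1 match to the CIC pattern, at 125 bases before the start. The windows of its other listed starts held none. These are letter matches, and no binding was measured.

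ETV4 (chromosome 17, 43527846 to 43546340 in GRCh38.p14) encodes an activator of matrix metalloproteinase and migration genes in several epithelial tissues. Its brighter probe, ILMN_1753830, was detected on 8 of 55 arrays, and those were the 4 SCL60 arrays with triptorelin for 8 h and the 4 with triptorelin for 24 h. At 8 h the triptorelin arrays read 6.32, 6.63, 6.06 and 6.64, against 4.56, 4.50, 5.14 and 5.03 with vehicle. At 24 h they read 7.65, 8.08, 7.26 and 8.11, against 4.65, 4.68, 4.64 and 4.71. The groups did not overlap at either time, and no vehicle array reached detection. The difference was 1.61 (SE 0.16) at 8 h, at least 1.69-fold, and 3.11 (SE 0.16) at 24 h, at least 4.24-fold. The bounds set the triptorelin mean against the lowest detected level of each vehicle array, since the vehicle signals themselves are only known to lie below it. These are bulk samples, so fewer expressing cells and less RNA per cell cannot be told apart.

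Up to 2 h, the last time sampled before 8 h, ETV4 stayed undetected in SCL60. The 4 arrays at 2 h of triptorelin read 5.17, 4.70, 4.95 and 4.72, and the 3 vehicle arrays at 1 h read 4.79, 4.72 and 4.77. The differences from the 1 h vehicle group were -0.01 at 0.5 h, 0.01 at 1 h and 0.12 at 2 h (each SE 0.17). The second ETV4 probe, ILMN_2341661, was also detected on 8 arrays. It was higher by 1.39 at 8 h (SE 0.14, at least 1.23-fold) and by 2.52 at 24 h (SE 0.14, at least 2.55-fold). Across the 55 arrays both probes correlated with r = 0.977, as a description of probes read on the same arrays.

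ETV5 (chromosome 3, 186046314 to 186109089), a PEA3 factor known from fibroblast growth factor signalling and spermatogonial stem cells, was seen earlier than ETV4. On its brighter probe, ILMN_1739222, the 4 arrays at 2 h of triptorelin read 7.35, 6.84, 7.00 and 7.66 and all were detected. The 1 h vehicle arrays that served as control for 0.5, 1 and 2 h read 4.95, 4.85 and 5.17, and none was detected. At 1 h of triptorelin the arrays read 5.04, 5.26, 4.94 and 5.26, still undetected and within 0.14 of the vehicle mean (SE 0.23). The 2 h arrays lay above all vehicle arrays, with a difference of 2.22 (SE 0.23), at least 2.95-fold. The 3 early comparisons share these control arrays, and because there was no vehicle group at 0.5 h or 2 h, time in culture and triptorelin cannot be told apart there.

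At 8 h ETV5 read 9.01, 9.01, 9.32 and 9.40 with triptorelin and 5.34, 5.30, 6.17 and 5.52 with vehicle, of which 2 were detected. The difference was 3.60 (SE 0.21), 12.2-fold on the fitted means. At 24 h the triptorelin arrays read 9.29, 9.18, 9.10 and 9.79 and the vehicle arrays 4.66, 4.89, 5.27 and 4.86. All vehicle arrays were then undetected, and the difference was 4.42 (SE 0.21), at least 12.5-fold. The triptorelin groups at 8 h and 24 h overlapped with each other and did not overlap with any other group on this probe.

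The dimmer ETV5 probe, ILMN_1723260, gave a smaller difference. It was detected on 4 arrays in all, 2 of 4 at 8 h and 2 of 4 at 24 h of triptorelin, and was higher than vehicle by 0.87 at 8 h (SE 0.16) and by 0.96 at 24 h (SE 0.16). At 2 h it differed by 0.15 (SE 0.17) and was undetected on every array, so the difference at 2 h rests on the brighter probe. The correlation of both ETV5 probes was 0.804 over the 55 arrays.

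ETV1 (chromosome 7, 13891229 to 13991425), the third PEA3 gene and an oncogenic fusion partner in prostate cancer, has 1 probe, ILMN_1685891. It was detected on none of the 55 arrays and its log2 signal stayed between 4.31 and 4.58 in all 14 groups. No fold change is given for it, and it was not among the tested probes.

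**Figure D1:**
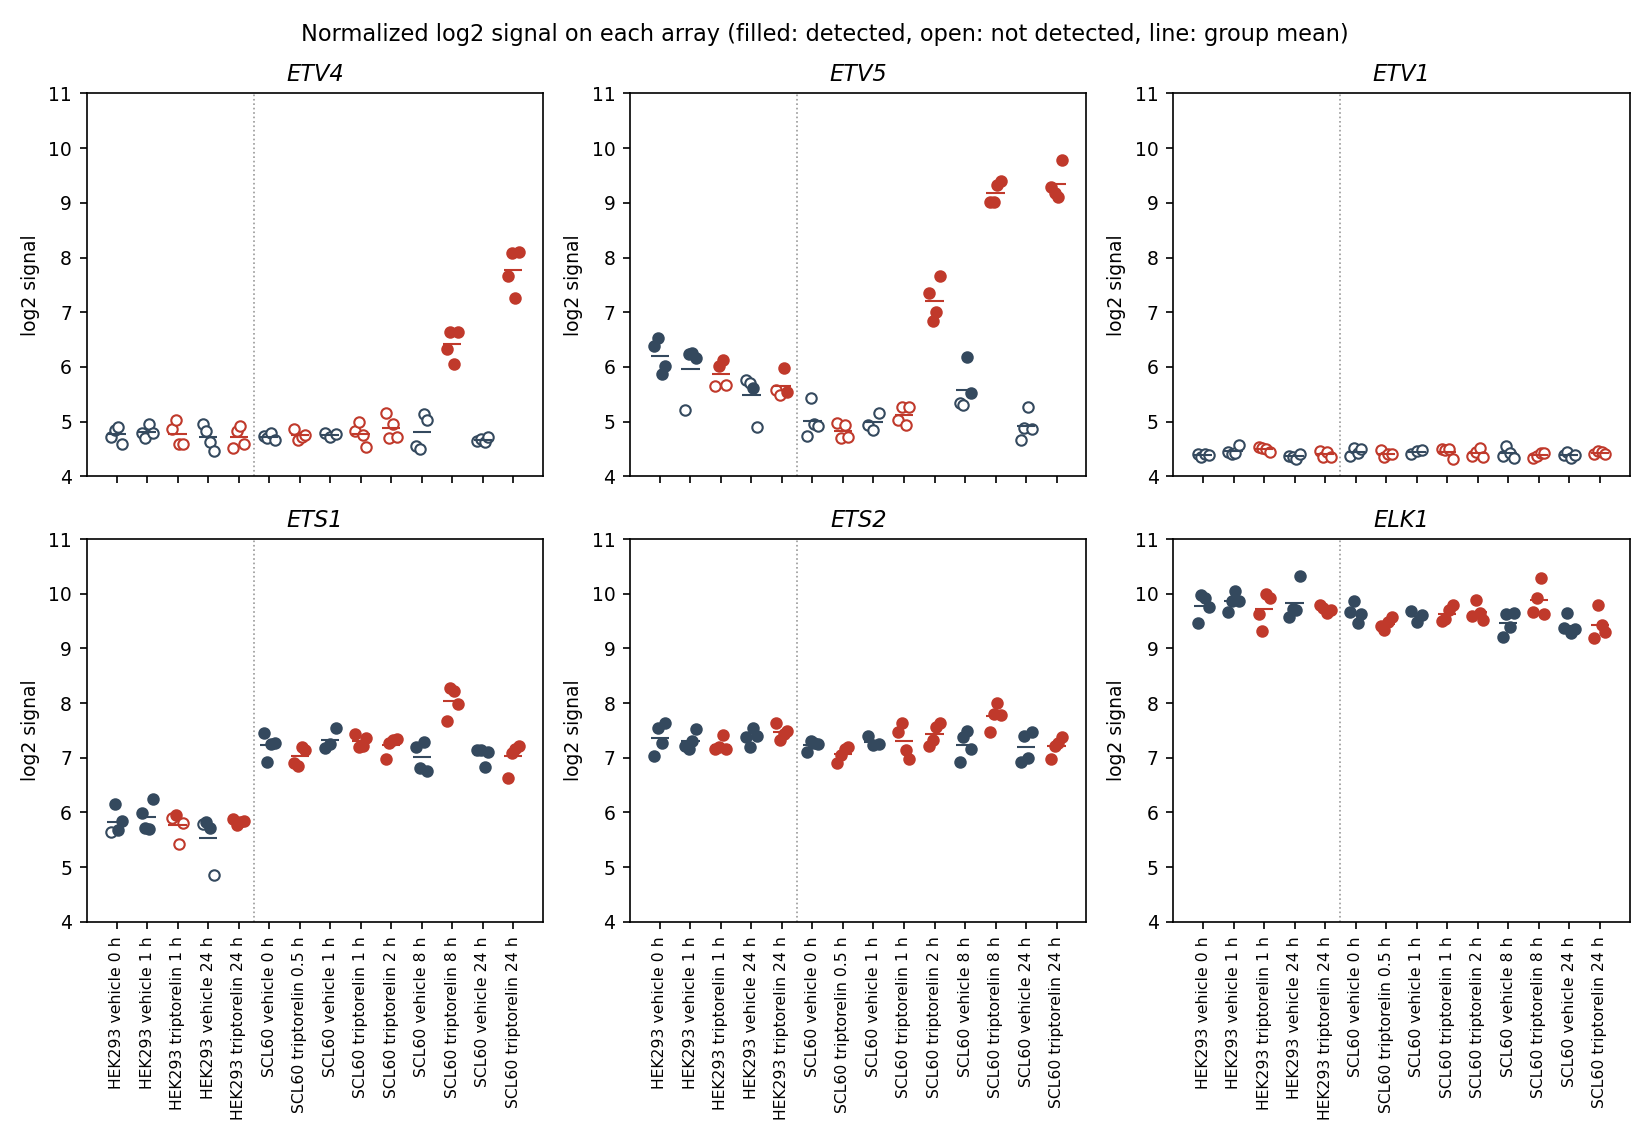
Normalized log2 signal of the brightest probe of each gene on every array, by group (x axis), with triptorelin in red and vehicle in dark grey, filled points for detected arrays and lines for group means. ETV4 leaves the undetected range only in the SCL60 groups with triptorelin for 8 h and 24 h, ETV5 leaves it from 2 h, and ETV1 is undetected throughout.

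The difference between triptorelin and vehicle at 24 h was set against that at 8 h, a contrast added after the values had been seen. The difference at 24 h exceeded that at 8 h by 1.50 for ETV4 (SE 0.23), by 1.14 on its second probe (SE 0.19) and by 0.82 for ETV5 (SE 0.30). On the dimmer ETV5 probe the excess was 0.08 (SE 0.22). For ETV5 the triptorelin mean moved little, from 9.19 to 9.34, and the vehicle mean moved from 5.58 to 4.92. Of the ETV5 vehicle arrays 2 of 4 were detected at 8 h and 0 of 4 at 24 h. The move of the vehicle mean, and with it the ETV5 excess, therefore rests on signals that are only bounded. For ETV4 the triptorelin mean moved from 6.41 to 7.78 with vehicle undetected at both times.

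The label of late ETS factors came from these same values. It describes ETV4, which was undetected up to 2 h and detected at 8 h, with no array taken in between. For ETV5 it applies only in part, since all 4 arrays were already above detection at 2 h. Over the 14 group means ETV4 and ETV5 correlated with r = 0.885, over points that include the 2 groups in which both were high and share the arrays of each group.

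ETS1 (chromosome 11, 128458765 to 128587558), a factor of lymphoid and endothelial cells, stood apart from the other SCL60 groups in 1 of them. Its brighter probe, ILMN_1687538, read 7.67, 8.28, 8.22 and 7.99 at 8 h of triptorelin and 7.19, 6.81, 7.28 and 6.75 with vehicle. The groups did not overlap, and the difference was 1.03 (SE 0.18), 2.05-fold. At 24 h the arrays read 6.62, 7.09, 7.17 and 7.21 with triptorelin and 7.13, 7.15, 6.83 and 7.11 with vehicle, a difference of -0.03 (SE 0.18). The difference at 24 h minus that at 8 h was -1.06 (SE 0.25), opposite in sign to that of ETV4 and ETV5. Within hybridisation batch 1 and batch 2 the ETS1 difference was 1.12 and 0.70 at 8 h, and 0.13 and -0.51 at 24 h. Batch 2 held 1 triptorelin and 2 vehicle arrays at 8 h and 1 of each at 24 h. The dimmer ETS1 probe, ILMN_2122103, was detected on 11 arrays and differed by 0.45 at 8 h (SE 0.24), with overlapping groups, and by -0.01 at 24 h.

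ETS2 (chromosome 21, 38805183 to 38824955), a close relative of ETS1 that acts in trophoblast and macrophages, was detected on all 55 arrays. At 8 h it read 7.47, 7.79, 8.00 and 7.78 with triptorelin and 6.92, 7.38, 7.49 and 7.17 with vehicle. The lowest triptorelin array lay just below the highest vehicle array, and the difference was 0.52 (SE 0.15), 1.43-fold. At 24 h the difference was 0.01 (SE 0.15).

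ELK1 (chromosome X, 47635520 to 47650604), the TCF that with serum response factor drives immediate early genes, was also detected on every array. It read 9.66, 9.92, 10.28 and 9.63 at 8 h of triptorelin against 9.20, 9.63, 9.40 and 9.65 with vehicle. The groups overlapped, and the difference was 0.41 (SE 0.15), 1.33-fold at 8 h and 0.01 (SE 0.15) at 24 h. Within batch 1 and batch 2 the 8 h differences were 0.44 and 0.24 for ELK1 and 0.42 in both for ETS2. From 0.5 h to 2 h the differences of ETS1, ETS2 and ELK1 on these probes lay between -0.29 and 0.14, with SEs of 0.16 to 0.19.

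**Figure D2:**
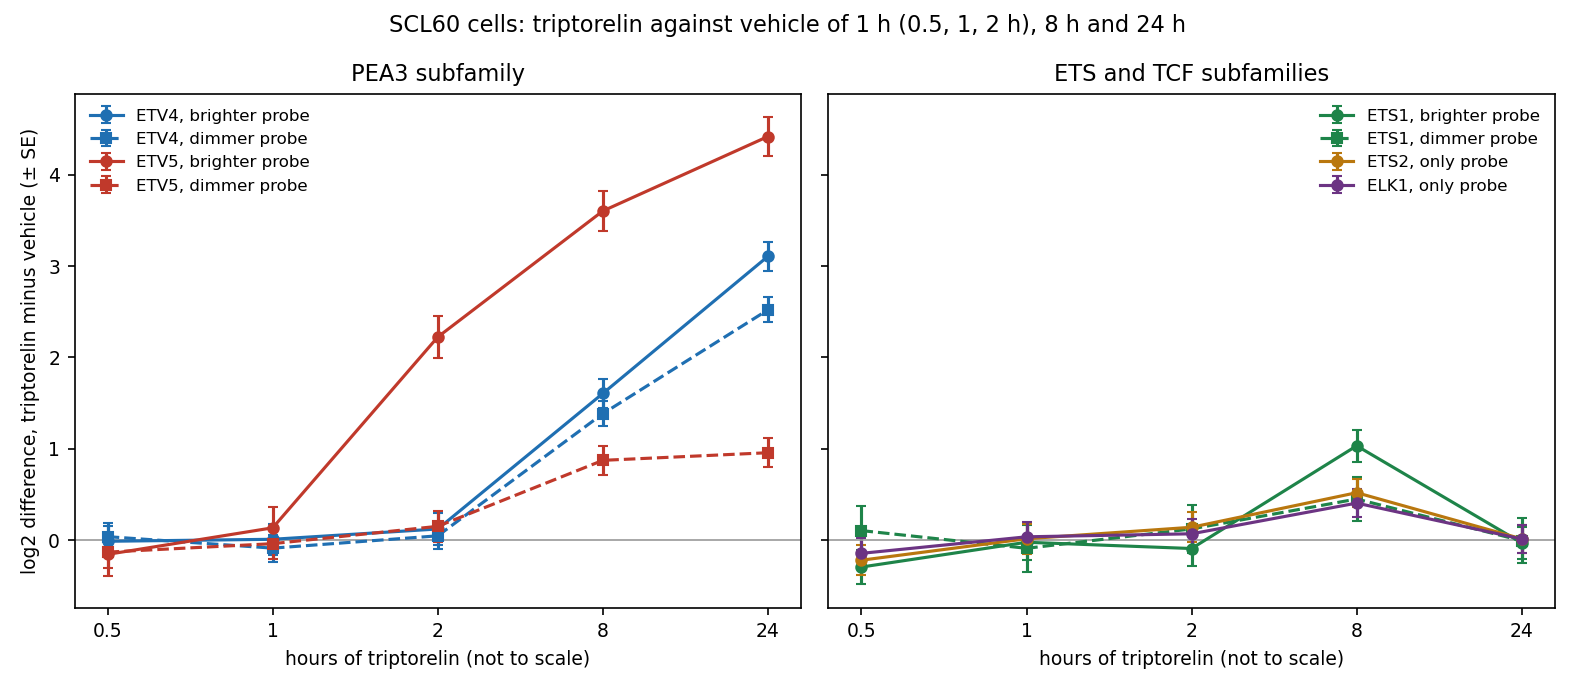
Difference in log2 signal between triptorelin and vehicle in SCL60 (y axis, ± SE) by hours of triptorelin (x axis, not to scale), for both probes of ETV4 and ETV5 (left) and for ETS1, ETS2 and ELK1 (right). The ETV4 lines are highest at 24 h and the ETV5 lines are high at both 8 h and 24 h, whereas ETS1, ETS2 and ELK1 peak at 8 h and are near 0 at 24 h.

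Of the 5 genes with a tested probe, none passed the adjusted p of 0.05 at 0.5 h or 1 h, where 0.0999% and 0.506% of the 16016 tested probes were called higher. At 2 h 1 of 5 (ETV5) was called higher, against 0.962% of all probes. All 5 were called higher at 8 h, against 10.8% of all probes, and 2 of 5 (ETV4 and ETV5) at 24 h, against 4.36%. The genes were chosen with these comparisons known, so the counts are printed for completeness only. At 8 h 4 of 5 genes passed without the filter on dim probes or when the chip, the labelling batch or the hybridisation batch was fitted as a block.

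The PEA3 differences were also taken within each hybridisation batch. For ETV4 they were 1.62 and 1.53 at 8 h and 3.14 and 3.01 at 24 h in batch 1 and batch 2. For ETV5 they were 2.27 and 2.24 at 2 h, 3.51 and 3.58 at 8 h and 4.35 and 4.63 at 24 h. The size of both moved with the background correction. Without background correction ETV4 was higher by 1.01 at 8 h and 2.12 at 24 h, and ETV5 by 1.44 at 2 h, 2.82 at 8 h and 3.36 at 24 h.

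HEK293 cells, which lack the transfected receptor, were compared with and without triptorelin to see whether these genes moved there, in comparisons that had no part in choosing the genes. ETV4 was undetected on all 20 HEK293 arrays. Its probe passed the detection filter only through the SCL60 arrays at 8 h and 24 h of triptorelin, so no difference is given for it in HEK293. ETV5 read 5.58, 5.48, 5.99 and 5.55 at 24 h of triptorelin and 5.76, 5.70, 5.61 and 4.89 with vehicle, overlapping groups with a difference of 0.16 (SE 0.21, adjusted p = 1). At 1 h it differed by -0.10 (SE 0.21, adjusted p = 1). ETS1 differed by -0.14 at 1 h and 0.29 at 24 h, ETS2 by -0.07 and 0.10, and ELK1 by -0.14 and -0.11 (adjusted p = 1 for each). None of these 4 genes passed at 1 h or 24 h, and 0% of the 16016 probes were called in either comparison, with 338 and 358 probes at an unadjusted p under 0.05. Without the filter on dim probes, 1 probe was called at 1 h.

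As a description, the triptorelin effect at 24 h in SCL60 exceeded that in HEK293 by 4.26 for ETV5 (SE 0.30), whose SCL60 vehicle arrays were undetected. For ETV4 the fitted value was 3.11 (SE 0.23). Its HEK293 arrays and SCL60 vehicle arrays were all undetected, so this size rests on signals that are only bounded. In this comparison 3.53% of probes were called and 1.8% were called higher. For ETS1, ETS2 and ELK1 the difference of effects at 24 h was -0.32 (SE 0.25), -0.08 (SE 0.21) and 0.13 (SE 0.22). At 8 h, when the latter 3 genes stood highest, HEK293 was not sampled.

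The control arrays of both lines allowed a test that the choice of genes did not use, namely whether the lines differ without triptorelin. ETV5 was lower in SCL60 than in HEK293 at 0 h, where HEK293 read 6.39, 6.53, 5.87 and 6.03, all detected, and SCL60 read 4.73, 5.43, 4.96 and 4.92, none detected. The difference was -1.19 (SE 0.21, adjusted p = 3.39e-05), at least 1.55-fold lower, in a comparison in which 18.3% of probes were called and 7.93% were called lower. Within batch 1 and batch 2 it was -1.20 and -1.31. At 1 h it was -0.98 (SE 0.23, adjusted p = 0.0018, against 14.9% of probes called and 6.38% called lower), at least 1.25-fold, with 3 of 4 HEK293 arrays detected. At 24 h it was -0.57 (SE 0.21, adjusted p = 0.0583) and did not pass, against 17.5% of probes called and 7.82% called lower, and ETV5 was detected on 1 of 4 HEK293 arrays. Within batch 1 and batch 2 the 24 h difference was -0.24 and -1.07. Leaving out replicate 4 of the HEK293 group or replicate 3 of the SCL60 group put it past the threshold, at -0.77 and -0.69. The dimmer ETV5 probe was undetected in both lines and differed by 0.06 at 0 h (SE 0.16).

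ETS1 was higher in SCL60 in each of the 3 control comparisons. At 0 h SCL60 read 7.46, 6.92, 7.25 and 7.27 and HEK293 5.64, 6.16, 5.68 and 5.85. The groups did not overlap, and the differences were 1.39 at 0 h (adjusted p = 2.09e-08), 1.41 at 1 h (adjusted p = 1.26e-07) and 1.51 at 24 h (adjusted p = 2.36e-09), with SEs of 0.18, 0.19 and 0.18. Within batch 1 and batch 2 they were 1.37 and 1.55 at 0 h, 1.66 and 1.13 at 1 h, and 1.75 and 1.33 at 24 h. Probes called higher made up 10.4%, 8.55% and 9.63% of all probes in these comparisons. The second ETS1 probe was higher by 0.68 (adjusted p = 0.0448), 0.60 (adjusted p = 0.123) and 0.74 (adjusted p = 0.0287), and HEK293 was undetected on it, with SCL60 detected on 1, 0 and 1 arrays.

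ETV4 was undetected on every control array of both lines, so the lines cannot be compared for it. ETS2 differed by -0.14, -0.01 and -0.18 at 0, 1 and 24 h and ELK1 by -0.13, -0.27 and -0.41, and neither passed in limma (lowest adjusted p = 0.0529, for ELK1 at 24 h). Of the 4 genes detected in the controls, ETV5 was lower in SCL60 at 0 h and 1 h, ETS1 was higher in SCL60 at all 3 times, and ETS2 and ELK1 did not pass.

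**Figure D3:**
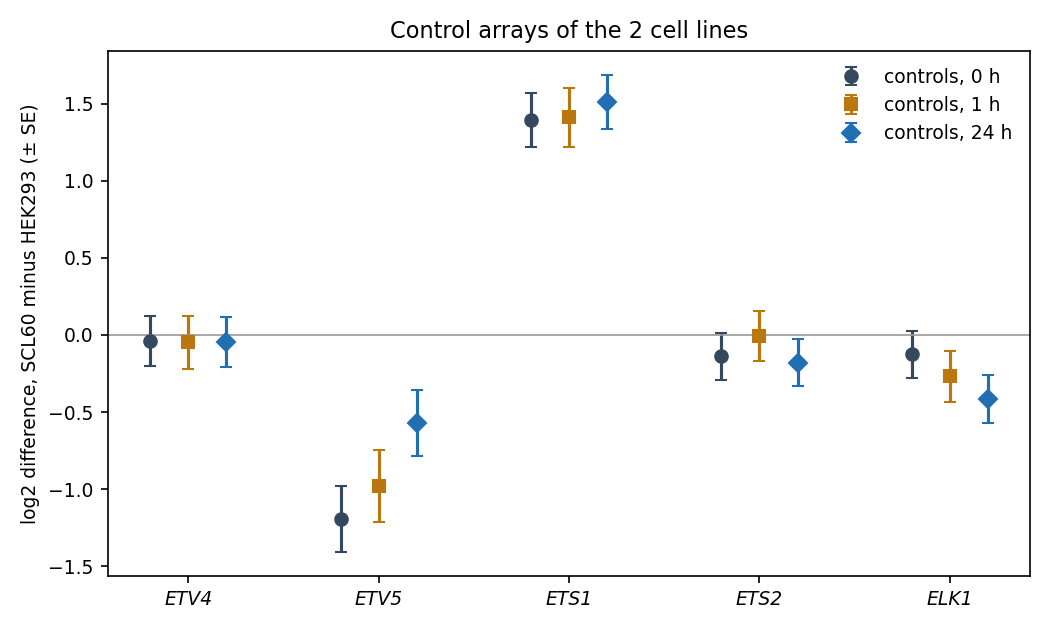
Difference in log2 signal between the control arrays of SCL60 and HEK293 (y axis, ± SE) for the brightest probe of each gene (x axis) at 0, 1 and 24 h. ETS1 lies at 1.39 to 1.51, ETV5 between -1.19 and -0.57, and ETV4 close to 0, where it is undetected in both lines.

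Time with vehicle put none of ETV5, ETS1, ETS2 and ELK1 past the threshold in either line. Of all probes, 0.0187% and 0.0125% were called between 0 h and 1 h and between 0 h and 8 h in SCL60, and 0.00624% between 0 h and 1 h in HEK293. The largest shift was that of ETV5 in HEK293 between 0 h and 24 h, -0.71 (SE 0.21, adjusted p = 0.809), where 0% of probes were called. ETV5 in SCL60 vehicle at 8 h lay 0.57 above 0 h (SE 0.21, adjusted p = 0.868, with 0% of probes called higher). The ETV5 order over all groups was therefore SCL60 with triptorelin at 24 h and 8 h, then 2 h, then the HEK293 groups from 6.20 to 5.49 together with SCL60 vehicle at 8 h, and last the other SCL60 groups from 5.12 to 4.83. From the fourth place of this order down, each group overlapped with the next. For ETV4 only the first and second place, 24 h and 8 h of triptorelin in SCL60, were set apart from the next group, and the other 12 groups lay between 4.67 and 4.88. ETS1 was highest in SCL60 at 8 h of triptorelin (8.04), then in the other SCL60 groups (7.01 to 7.32), and lowest in the HEK293 groups (5.54 to 5.91), with no overlap across these steps between neighbours in the order. For ETS2 the group means ran from 7.07 to 7.76 and for ELK1 from 9.42 to 9.88, both highest in SCL60 at 8 h of triptorelin, and every group overlapped with the next.

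The rest of the ETS family was read from the same arrays, as 22 further genes of which 9 had a tested probe. This list and those below were drawn up with earlier results of these data known, so their counts are a description. At 8 h of triptorelin in SCL60, 3 of the 9 rose and none fell, against 10.8% of all probes called higher and 12.3% called lower. The median difference of the 9 was 0.35, beside -0.02 over all probes. ELF1, a factor of the ELF subfamily, rose by 1.09 (SE 0.13, adjusted p = 8.02e-09). GABPA, the DNA-binding subunit of GA-binding protein and a regulator of mitochondrial genes, rose by 0.70 (SE 0.18, adjusted p = 0.00305). ELK4, a TCF like ELK1, rose by 0.57 (SE 0.15, adjusted p = 0.00463), and its second tested probe by 1.02 (adjusted p = 2.23e-05).

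At 24 h none of the 9 passed in limma, and their median was 0.08, beside -0.01 over all probes. With the replicate number as a block, ELF1 (0.38, adjusted p = 0.0288) and ELF4 (0.54, adjusted p = 0.00503) were higher at 24 h. At 8 h the block added ELF4 (0.35, adjusted p = 0.0485) and, as a fall, ELF2 (-0.31, adjusted p = 0.046). At 2 h none passed without the block, and ELK4 (0.54, adjusted p = 0.0364) and ELF1 (0.50, adjusted p = 0.027) did with it. The block moved the share of all probes called from 1.31% to 2.88% at 2 h, from 23.2% to 33.9% at 8 h and from 9.51% to 16.7% at 24 h.

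None of the ETS repressors passed at 8 h or 24 h. ERF, a repressor that ERK exports from the nucleus, differed by 0.37 at 8 h and -0.13 at 24 h (adjusted p = 0.286 and 0.846). ETV3 differed by -0.12 and 0.08 (adjusted p = 0.732 and 0.898), and ETV6, the TEL repressor, by -0.30 and -0.21 (adjusted p = 0.319 and 0.647). The TCF ELK3 was detected on no array, and ETV3 and ETV6 were detected on 22 and 23 of the 55 arrays.

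Between the untreated lines at 0 h, GABPA and ELK4 were lower in SCL60, by -0.51 (adjusted p = 0.0396) and -0.46 (adjusted p = 0.0305), and no other of the 9 passed, in a comparison in which 18.3% of all probes were called and 7.93% were called lower. At 24 h, with 17.5% of probes called, ERF was higher in SCL60 by 0.80 (adjusted p = 0.0156). At 1 h, with 14.9% of probes called, none of the 9 passed. ELK4 did with the replicate block (-0.47, adjusted p = 0.0196), which called 23% of probes there. The remaining 13 genes of the family had no probe past the detection filter.

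**Figure D4:**
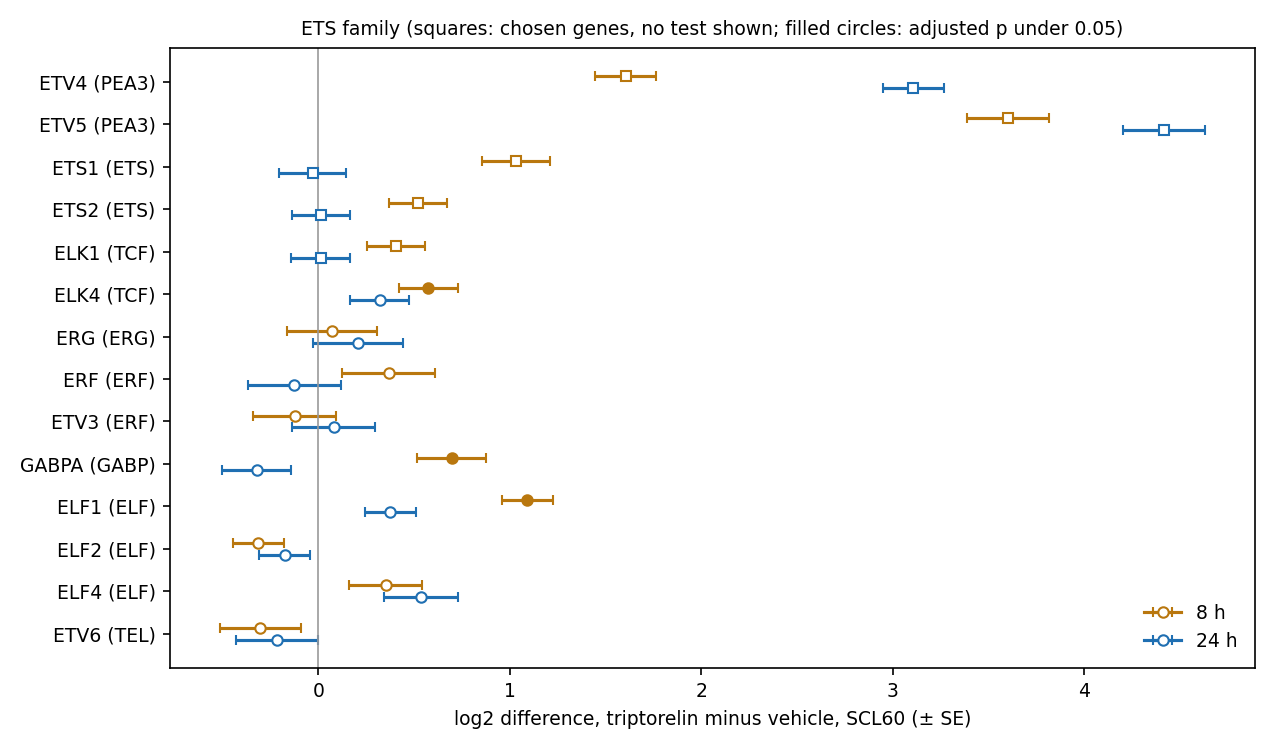
Difference in log2 signal between triptorelin and vehicle in SCL60 (x axis, ± SE) at 8 h and 24 h for the 14 ETS genes with a tested probe, with the subfamily in brackets; squares are ETV4, ETV5, ETS1, ETS2 and ELK1, shown without a test, and filled circles passed an adjusted p of 0.05. At 24 h only ETV4 and ETV5 stand above 1, and at 8 h ELF1 and ETS1 also do.

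The genes that hold PEA3 activity in check were looked at on a list of 9, all tested. They comprise the CIC repressor with its partners ATXN1 and ATXN1L, and the COP1 ubiquitin ligase with DET1, DDA1, DDB1, CUL4A and CUL4B. At 8 h 1 of 9 fell and none rose, DET1, the adaptor of the ligase, by -0.45 (SE 0.15, adjusted p = 0.0279), and its second probe by -0.49 (adjusted p = 0.0285). The list median was -0.05, beside -0.02 over all probes, of which 12.3% were called lower. CUL4B, a cullin scaffold, differed by -0.35 at 8 h (adjusted p = 0.082). It passed with the replicate block at adjusted p = 0.0402, where 33.9% of all probes were called. No regulator passed at 8 h when any 1 of 5 arrays was left out, which were replicates 1, 3 and 4 of vehicle and 1 and 2 of triptorelin, and 2 passed without replicate 3 of triptorelin.

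At 24 h 2 of 9 fell and none rose, against 5.15% of probes called lower, and the list median was -0.23, beside -0.01. CIC fell by -0.66 (SE 0.20, adjusted p = 0.0222), with overlapping groups whose means were 6.74 with triptorelin and 7.40 with vehicle. CUL4B fell by -0.60 (SE 0.15, adjusted p = 0.00524), but its second probe differed by -0.09 (adjusted p = 0.845). COP1 itself differed by 0.03 at 8 h and 0.07 at 24 h. CIC differed by -0.21, -0.38, -0.54 and -0.26 at 0.5, 1, 2 and 8 h, none of which passed. The count at 24 h was 1 when replicate 3 or 4 of vehicle or replicate 1 or 4 of triptorelin was left out.

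Before treatment 3 of these 9 genes were called between the lines at 0 h, a comparison in which 18.3% of all probes were called, 10.4% higher and 7.93% lower. ATXN1 was lower in SCL60 by -0.83 (adjusted p = 0.0325), and COP1 and CUL4B were higher by 0.38 (adjusted p = 0.00738) and 0.65 (adjusted p = 0.00128). At 1 h, with 14.9% of all probes called, ATXN1 was lower by -0.91 (adjusted p = 0.0351) and COP1 higher by 0.33 (adjusted p = 0.0416). With the replicate block, which called 23% of all probes, CUL4A (-0.54, adjusted p = 0.00555) and CUL4B (0.41, adjusted p = 0.0375) passed too. At 24 h CIC was higher in SCL60 vehicle than in HEK293 vehicle by 0.60 (adjusted p = 0.0275).

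ERK output genes, which are known to follow ERK activity in many cells, were read on a list of 14 of which 12 had a tested probe. This list too was drawn up with earlier results of these data known, so its counts are a description. DUSP6, an ERK phosphatase, was detected on no array and DUSP4 on 2. At 1 h of triptorelin 3 of 12 rose, against 0.506% of all probes called higher. These were DUSP5 by 2.46 (adjusted p = 1.1e-08), IER3 by 1.14 (adjusted p = 0.0423) and SPRY2 by 1.13 (adjusted p = 3.82e-05). DUSP5 is a nuclear ERK phosphatase, IER3 an immediate early gene and SPRY2 a feedback inhibitor of receptor tyrosine kinase signalling. ETV5, as given above, was still undetected at that time. The list median at 1 h was 0.19, beside -0.01 over all probes. With vehicle alone, 1 of the 12 was called higher at 1 h than at 0 h in each line. Of all probes, 0.0187% in SCL60 and 0.00624% in HEK293 were called higher there. The 1 h vehicle arrays of SCL60 are the control up to 2 h, so for that gene the control level had itself moved.

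At 2 h, when ETV5 was first detected, 7 of 12 ERK output genes rose and none fell, against 0.962% of all probes called higher and 0.35% called lower. They included IER3 (1.99, adjusted p = 3.43e-06), DUSP5 (1.53, adjusted p = 0.000394), SPRED1 (1.20, adjusted p = 2.32e-06) and SPRY4 (1.15, with 3 of 4 arrays detected). SPRY4 was detected on 11 arrays in all. Its probe can have passed the detection filter through the triptorelin groups alone, so its difference is given without a test. The counts of this list here and below include SPRY4. SPRED1 and SPRY4 are further feedback inhibitors of the pathway. EPHA2, an ephrin receptor, rose by 1.08 (adjusted p = 0.00235) and SPRY2 by 0.97 (adjusted p = 0.000394). EPHA2 was detected on 20 arrays in all, and the groups of these arrays are not given here. The limit of SPRY4 may hold for EPHA2 too, so its adjusted p-values with triptorelin, here and below, are a description. The list median was 0.88, beside -0.02 over all probes.

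At 8 h 10 of 12 rose and 1 fell, against 10.8% of all probes called higher and 12.3% called lower, and the list median was 1.88, beside -0.02. EGR1, an immediate early zinc finger factor, rose by 3.67 (SE 0.50, adjusted p = 1.47e-07) and DUSP5 by 2.68 (adjusted p = 1.52e-11). EPHA2, FOSL1, IER3 and SPRY4 rose by 2.37, 2.29, 2.16 and 2.04 (adjusted p at most 1e-08 for EPHA2 and IER3). FOSL1 was detected on 6 arrays in all, so like SPRY4 it is given without a test, and the count includes both. The fall was that of EPHA4, an ephrin receptor named after its value was seen, by -0.96 (adjusted p = 1.11e-06).

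At 24 h 9 of 12 rose and 1 fell, against 4.36% of all probes called higher and 5.15% called lower, with a list median of 1.18, beside -0.01. EGR1, DUSP5, IER3, SPRY4 and EPHA2 rose by 3.27, 2.37, 2.29, 2.18 and 1.96 (largest adjusted p = 4.06e-06, SPRY4 left out), and EPHA4 fell by -1.26 (adjusted p = 3.84e-09). CCND1, cyclin D1, and PHLDA1 did not pass, with differences of -0.03 and 0.34. In HEK293 none of the 12 passed in limma with triptorelin at 1 h or 24 h, where 0% of all probes were called.

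Without triptorelin, 5 of the 12 ERK output genes were lower in SCL60 than in HEK293 at 0 h and none was higher, against 7.93% of probes called lower, the same direction as ETV5. CCND1 was lower by -0.86 (adjusted p = 0.00274), SPRY2 by -0.83 (adjusted p = 0.000162) and SPRED1 by -0.73 (adjusted p = 0.000496). PHLDA1 was lower by -0.73 (adjusted p = 0.032) and SPRED2 by -0.57 (adjusted p = 0.00555). At 1 h 3 were lower, against 6.38% of probes called lower, and at 24 h 4 were lower, against 7.82%, with none higher at either time. With the replicate block 5 were lower at 1 h, SPRED2 (-0.43, adjusted p = 0.0363) and EPHA2 (-0.55, adjusted p = 0.0369) in addition. The block called 23% of all probes in either direction there, against 14.9% without it.

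**Figure D5:**
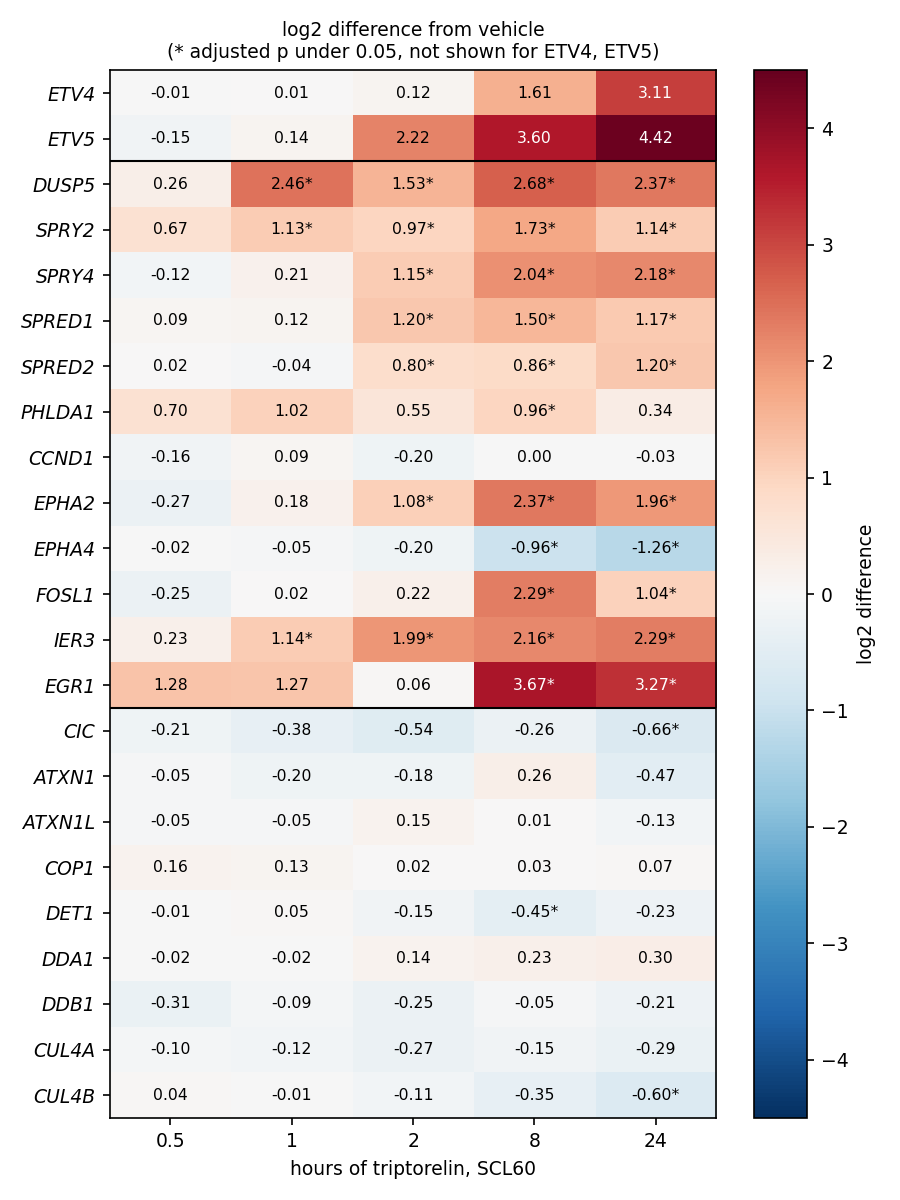
Difference in log2 signal between triptorelin and vehicle in SCL60 (colour and printed value) by hours of triptorelin (columns) for ETV4, ETV5, the 12 ERK output genes and the 9 PEA3 regulators (rows); stars mark an adjusted p under 0.05 and are left out for ETV4 and ETV5. DUSP5, SPRY2 and IER3 carry a star from 1 h, ETV5 is above 2 from 2 h and ETV4 above 1 from 8 h, and CIC and CUL4B carry a star at 24 h. Any stars of SPRY4 and FOSL1, which were detected on few arrays, and of EPHA2 are a description.

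Genes reported as targets of PEA3 or ETS factors in other cells were read on a list of 19, of which 10 had a tested probe. At 8 h 3 rose and 1 fell, against 10.8% of all probes called higher and 12.3% called lower, and the median was 0.04, beside -0.02 over all probes. MMP10, a stromelysin, rose by 5.34 (SE 0.23), at least 18.8-fold, from vehicle arrays that were all undetected. MMP10 was detected on 9 arrays in all. Its probe can have passed the detection filter through the triptorelin groups alone, so no test is given for it, although the counts include it. PTGS2, cyclooxygenase 2, rose by 4.62 (SE 0.28, adjusted p = 1.4e-18), and MMP9, a gelatinase, by 0.67 (SE 0.17, adjusted p = 0.00289) with overlapping groups. MMP9 was detected on 17 arrays in all, and the groups of these arrays are not given here. Its probe may have passed the filter in the same way as that of MMP10, so its adjusted p-values at 8 h and 24 h are a description. ERBB2, a receptor tyrosine kinase, fell by -0.48 (adjusted p = 0.00395).

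At 24 h the same 3 rose and 1 fell, against 4.36% of all probes called higher and 5.15% called lower. MMP10 rose by 4.29, again without a test, PTGS2 by 2.86 (adjusted p = 5.56e-11) and MMP9 by 1.43 (adjusted p = 9.89e-09, at least 2.05-fold). VIM, vimentin, fell by -0.51 (adjusted p = 0.0241), while its second probe differed by -0.41 (adjusted p = 0.107). PTGS2 had already risen by 3.78 at 1 h (adjusted p = 2.16e-13), and TWIST1 rose by 0.81 at 1 h (adjusted p = 0.0206). Whether ETV4 or ETV5 acted on any gene of this list was not tested. With the replicate block PLAUR (0.58, adjusted p = 0.0254) and TWIST1 (0.36, adjusted p = 0.0239) also passed at 24 h. The block called 16.7% of all probes there, against 9.51% without it. The other 9 genes of the list had no tested probe. The list count at 24 h was 3 when replicate 3 or 4 of vehicle or replicate 1 of triptorelin was left out, and 5 without replicate 3 of triptorelin.

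The genes whose pattern was most like that of ETV4 were ranked by Pearson's r over the 14 group means, among 2514 genes detected on every array of at least 1 group and varying by at least 1 log2 unit. They were CPA4 (r = 0.996), IL11 (0.995), ANXA3 (0.975), IRX4 (0.97), NTS (0.969), DMRT1 (0.967), KRTAP21-2 (0.963) and FAM174B (0.959). CPA4, a carboxypeptidase, was higher with triptorelin by 2.10 at 8 h and 3.63 at 24 h, and IL11, an interleukin, by 1.21 and 1.99. NTS, the neurotensin precursor, was higher by 2.93 and 4.01. Like ETV4, all 3 differed more at 24 h than at 8 h, which follows from choosing them by likeness.

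The genes most like ETV5 were MFSD2A (r = 0.963), SRSF12 (0.958), PPEF1 (0.956), SPRY4 (0.953), SPRED2 (0.949), GALR2 (0.948), EPHA2 (0.945) and VGF (0.944). SPRY4, SPRED2 and EPHA2 are also on the list of ERK output genes. PPEF1, a protein phosphatase with EF hands, was higher by 1.27 at 2 h, 2.81 at 8 h and 2.15 at 24 h, and VGF, a neuropeptide precursor, by 0.32, 1.48 and 1.52. The group means share arrays and the same few raised groups, so these correlations are a description. By Spearman's rank correlation, 0 of the 8 genes named for ETV4 and 2 of the 8 for ETV5 stayed among the first 8.

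The other pairs among the 6 genes were less alike over the group means. ETV5 correlated with ETS2 at r = 0.538 and with ETS1 at 0.285, ETV4 with ETS1 at 0.351 and with ETS2 at 0.215, and ETS2 with ELK1 at 0.694. ETS1 and ELK1 correlated at -0.383, and ETV1 with any other between -0.354 and 0.0102, on a probe with no detected signal.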

How the data were processed

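The authors deposited non-normalized probe intensities on a linear scale with a detection p-value for each probe and array, per the file headers, and a second table of intensities normalized between arrays. Scanner software and normalization method are not given in the sources used here; in the second table the probe order of every array was kept and sorted values differed between arrays by at most 1.06 times. From the first table, signals were background corrected (limma 3.58.1 in R 4.3.3, normexp with negative controls inferred from detection p-values, offset 16), brought to common quantiles and transformed to log2. Probes detected (p under 0.01) on at least 3 arrays were kept, 16016 of 48803. Symbols came from the platform annotation: 28098 probes had 1 symbol, 13 several and 20692 none.

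limma was fitted to all 55 arrays with 1 mean per group and an intensity trend, and p-values were adjusted by Benjamini-Hochberg over all tested probes. A gene was represented by its tested probe with the highest mean over all arrays. The fit was checked on simulated data with independent noise on each array. This check does not cover deviations shared between arrays, which are described below. The 6 genes and the lists were chosen with earlier results of these data known. All 6 genes were named with every probe, of other lists at most 6 called genes per comparison with the largest difference first, with EPHA4 at 8 h as an exception, the ETS genes GABPA, ELK3, ELK4, ERF, ETV3 and ETV6 wherever measured, and the 8 genes most like ETV4 and ETV5. Genes of a list that did not pass were named after their values were seen.

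A fold written "at least" sets the brighter mean against a mean that takes, for each undetected array, the higher of its own signal and the lowest detected signal of that array. Arrays of equal replicate number deviated together (every pair over 0.1) in all 5 triptorelin comparisons of SCL60, lowest correlation 0.169. They also did in the vehicle comparisons within SCL60 and in 1 comparison of the lines (1 h). In HEK293 with triptorelin and between the lines at 0 h and 24 h not every pair was over 0.1. The lowest pairs there were at 0.0563 to 0.0921 and the highest at 0.465 to 0.687. With vehicle in HEK293 the lowest pair was 0.31 at 1 h and -0.00794 at 24 h. The labels do not say what the replicate number marks. It went largely with the labelling batch, so number and labelling batch cannot be fully told apart. Alternatives were the authors' table, no background correction, cyclic loess, other filters, 1 probe per gene, blocks for replicate, chip, labelling and hybridisation batch, fits of the compared groups alone, other vehicle times, and leaving out each array. No 2 arrays held identical signals, and replicates correlated at 0.95 to 0.993.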

Additional observations from a re-analysis of the deposited data

Results flagged for a closer look

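Among 78 sets of 4 arrays (a probe in a group), 5 had 1 array that stood apart from the other 3 by Dixon's criterion, where chance alone gives about 1 in 20. ETV5 read 5.22 on replicate 1 of HEK293 vehicle at 1 h, with the others at 6.17 to 6.26. ETS1 read 4.85 on replicate 4 of HEK293 vehicle at 24 h, with the others at 5.71 to 5.82, and 6.83 on replicate 3 of SCL60 vehicle at 24 h, with the others at 7.11 to 7.15. ETS2 read 7.41 on replicate 3 of HEK293 triptorelin at 1 h, with the others at 7.16 to 7.19. ETV1, never detected, read 4.32 on replicate 4 of SCL60 triptorelin at 1 h, with the others at 4.47 to 4.50.

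The triptorelin effect at 24 h differed between the lines, by 3.11 for ETV4 (SE 0.23) and by 4.26 for ETV5 (SE 0.30), SCL60 minus HEK293, higher in 4 of 4 SCL60 arrays than in every vehicle array. These genes were chosen for their level in SCL60, so the difference is a description. For ETV4 it also rests on undetected signals in HEK293 and in SCL60 vehicle.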

How the results depend on the processing

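No difference that passed the threshold turned its direction under the alternatives run. Differences near 0 did, among them those of ETS1, ETS2 and ELK1 at 24 h of triptorelin in SCL60, which ran from -0.10 to 0.10, -0.08 to 0.11 and -0.11 to 0.09 when 1 array was left out, and that of ETV4 at 1 h, from -0.06 to 0.09. ETV4 and ETV5 were smaller without background correction and in the authors' table, respectively 1.01 and 1.02 for ETV4 at 8 h and 2.12 and 2.15 at 24 h, and for ETV5 1.44 and 1.46 at 2 h, 2.82 and 2.86 at 8 h, and 3.36 and 3.39 at 24 h. The cause was not tested. Counts of probes called moved as follows.

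With the replicate number as a block, 462 probes were called in SCL60 at 2 h (210 without), 2673 at 24 h (1523), 3680 between the lines at 1 h (2391) and 4299 at 24 h (2796), and 1178 for the difference of effects at 24 h (566). For vehicle against 0 h it gave 6 in SCL60 at 1 h (3), 8 at 8 h (2) and 7 in HEK293 at 1 h (1). Of the ETS family without the 6 genes, 5 passed at 8 h (3) and 2 at 24 h (0), and of the PEA3 regulators 2 at 8 h (1). The block changed no call of the 5 genes with a tested probe in SCL60 with triptorelin. Between the lines at 24 h the block put ETV5 (-0.57) and ELK1 (-0.41) past the threshold, at adjusted p = 0.0382 and 0.0222 in limma. In that comparison the correlation of arrays of equal number ran from 0.0921 to 0.539. ETV5 also passed there with cyclic loess (-0.67), with the other 3 blocks and without replicate 4 of the HEK293 group (-0.77) or replicate 3 of the SCL60 group (-0.69), and ELK1 in 8 settings in all.

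The labelling batch as a block gave 365 at 2 h, 2287 at 24 h and 888 for the difference of effects. Fits of the compared groups alone gave 6 at 0.5 h (16), 48 at 1 h (81), 86 at 2 h, 1928 at 8 h (3712), 722 at 24 h, 300 for the difference of effects, 0 in the vehicle comparisons at 1 h of both lines, 0 regulators at 8 h and 24 h, and 2 targets at 8 h (4). With vehicle at 0 h as control 29 were called at 0.5 h, and with the mean of 0 h and 1 h 31 at 0.5 h and 489 at 2 h. Without the filter 1 was called in HEK293 at 1 h, 368 for the difference of effects, 0 regulators at 8 h and 1 at 24 h. SCL60 vehicle at 8 h (2) gave 1 with loess, no filter or 1 probe per gene, and 6, 5 and 6 with chip, labelling and hybridisation blocks. HEK293 vehicle at 1 h (1) gave 2 with loess, 3 with the strict filter, 3 with 1 probe per gene, and 2, 3 and 4 with those blocks. ETS genes at 24 h numbered 1 with loess, chip or hybridisation block and 2 with the labelling block, and regulators at 8 h 2 with the chip block. The cause was not tested.

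Leaving out 1 array gave 51 to 77 at 1 h (51 without replicate 2 or replicate 4 of the vehicle group, 52 without replicate 1 of triptorelin) and 110 to 201 at 2 h (110 without replicate 4 of vehicle). It gave 0 to 5 and 1 to 3 for SCL60 vehicle at 1 h and 8 h, 0 to 3 for HEK293 vehicle at 1 h, 0 to 1 ETS genes at 24 h, 0 to 2 regulators at 8 h and 1 to 2 at 24 h.

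With 3 or 4 arrays a group and a quantile normalization that fixes each array's distribution, small differences cannot be resolved. ETV4 in vehicle, ETV1, and ETV5 in SCL60 vehicle at 0, 1 and 24 h were not detected, so their true levels and folds are only bounded.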
